A study of Homo sapiens with 6 samples.

Results

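The pre-B cell receptor is the checkpoint receptor of B cell precursors. It pairs an immunoglobulin mu heavy chain with a surrogate light chain, made of the VpreB and lambda 5 proteins, and it signals through the CD79A and CD79B chains. Src family kinases such as BLK phosphorylate the CD79 tails, SYK docks there, and the adaptor BLNK brings BTK to its substrates. The 10 genes described here encode these parts or related proteins. On the light chain side, *VPREB1* and *IGLL1* encode the surrogate light chain, and *IGLL5* and *VPREB3* are grouped with them as related genes. *CD79A* and *CD79B* encode the signaling chains, and *BLK*, *SYK*, *BLNK* and *BTK* the proximal kinases and adaptor. The 10 genes were chosen by name, with earlier results of these data known. All 10 were found among the 30017 genes listed in the count table.

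Gene expression was measured by RNA-seq of total RNA after ribosomal RNA depletion in BLaER1-CTCF-mAID cells. BLaER1 is a human B cell leukemia line that converts into induced macrophages (iMacs) when an inducible CEBPA is activated, and in the subclone used here CTCF carries an auxin-inducible degron, in all 3 groups. The groups of 2 biological replicates were cells before induction (0 h), cells 96 h after induction with 17β-estradiol, IL-3 and CSF-1 (96 h control), and cells at 96 h that had also received the auxin indole-3-acetic acid (IAA) from the start of induction (96 h CTCF-depleted). The subclone is a single clone, and cells that lack the degron but received IAA are not among the 6 libraries, so that IAA itself and CTCF loss cannot be told apart. The degron acts on protein, and *CTCF* RNA itself did not pass the test between the 96 h groups (log2 fold change 0.10, SE 0.05, adjusted p = 0.119, edgeR quasi-likelihood test).

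Total counts were 9273470 to 12718780 per library, so that 1 count corresponds to 0.0750 to 0.103 CPM (counts scaled to library size with TMM factors). The labelled cell types were checked against marker genes. All 10 precursor B cell markers were called lower at 96 h in control cells (thresholds below), beside 22.9% of all genes tested. Their summed level was 4229 to 4244 CPM at 0 h, 371.2 to 380.9 CPM in 96 h control and 399.3 to 399.6 CPM in 96 h CTCF-depleted libraries. All 10 macrophage markers were called higher, beside 25.4% of all genes tested. Their summed level was 35.5 to 39.3 CPM at 0 h, where *FCGR1A*, *CD163* and *MSR1* were at 0. It was 5100 to 5343 CPM in 96 h control and 4919 to 4958 CPM in 96 h CTCF-depleted libraries. *LYZ* alone had a mean of 4527 CPM in 96 h control and 4158 CPM in 96 h CTCF-depleted libraries. The 4 T cell markers summed to at most 0.278 CPM, and the 4 erythroid markers were at 0 in every library. The 4 plasma cell markers summed to 105.9 to 107.2, 308.0 to 308.1 and 337.4 to 344.4 CPM in the 3 groups, with *TNFRSF17* at 0 in CTCF-depleted cells. They did not move together: from 0 h to 96 h control *XBP1* went from 98.5 to 232.1 CPM and *PRDM1* from 1.35 to 75.7 CPM. *SDC1* fell from 6.55 to 0.269 CPM. Between the 96 h groups 7.03% of all genes tested were called lower and 5.41% higher. Of the 10 precursor B cell markers 1 was called lower (*RAG1*, 7.81 to 2.03 CPM) and 1 higher (*CD22*, 34.8 to 96.6 CPM). Of the 10 macrophage markers 3 were called lower (*MRC1*, *MPEG1* and *MSR1*, with log2 fold changes of -1.33, -1.11 and -0.61) and 1 higher (*ITGAM*, 1.15), and the part of such shifts in the results below was not tested. In bulk RNA, fewer B-like cells and less RNA per cell cannot be told apart, which holds for every value below.

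During conversion, 8 of the 10 genes were called lower and none was called higher. A gene was called where the adjusted p was below 0.01 and the log2 fold change was above 0.6 in size. Of the 14758 genes tested, 22.9% were called lower and 25.4% higher in this comparison. The median log2 fold change of the 10 genes was -3.96, beside 0.02 over all genes tested. The genes did not move as 1 block: *IGLL1*, *VPREB3*, *BLNK*, *IGLL5*, *BLK* and *VPREB1* had log2 fold changes from -6.85 to -3.56, *CD79A* and *CD79B* had -1.14 and -0.74, and *SYK* and *BTK* were not called. The 0 h and 96 h libraries did not overlap for any of the 10 genes, beside 86.7% of all genes, and all 10 had an adjusted p below 0.01, beside 68.2%. In CTCF-depleted cells at 96 h against control cells at 96 h, 3 genes were called lower (*VPREB1*, *IGLL1* and *IGLL5*, beside 7.03% of all genes) and 1 was called higher (*VPREB3*, beside 5.41% of all genes). The other 6, which hold both CD79 chains, all 3 kinases and the adaptor, were not called. The libraries of the 96 h groups did not overlap for 9 of the 10 genes, beside 67.9% of all genes, so that such separation is common here.

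*IGLL1* and *VPREB1*, the partners of the surrogate light chain, had the highest levels of the 10 genes per length at 0 h. *VPREB1*, which encodes the variable-like chain of the surrogate light chain, lies in hg38 on chromosome 22 from 22244780 to 22245515 on the plus strand. It had 151.3 and 135.0 CPM at 0 h, 12.97 and 11.21 CPM in 96 h control and 6.76 and 6.26 CPM in 96 h CTCF-depleted libraries. The 3 groups did not overlap. *VPREB1* fell by 3.56 on the log2 scale during conversion (SE 0.09, adjusted p = 1.77e-39) and was lower again with CTCF depletion, by a log2 fold change of -0.89 (SE 0.15, adjusted p = 1.3e-06). Its mean was 8.45% of the 0 h level in control cells and 4.55% in CTCF-depleted cells. The call between the 96 h groups was lost when the fold was tested against the 0.6 threshold itself (glmTreat, adjusted p = 0.0985).

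*IGLL1* encodes lambda 5, the constant-like chain of the surrogate light chain, and lies on chromosome 22 from 23573125 to 23580302 on the minus strand. It had 345.8 and 315.1 CPM at 0 h, 2.56 and 3.15 CPM in 96 h control and 1.02 and 1.47 CPM in 96 h CTCF-depleted libraries. This was the highest of the 10 genes per length at 0 h and the one with the deepest fall: the summed counts were 115-fold lower in 96 h control cells (95% exact binomial interval 89.9 to 150.1, which covers counting error only), a log2 fold change of -6.85 (SE 0.10, adjusted p = 1.4e-51) that ranked 58 from the lowest among all genes tested. With CTCF depletion *IGLL1* was lower by a further log2 fold change of -1.18 (SE 0.29, adjusted p = 0.000869), on 27 against 63 summed counts. That call was lost without 96 h control replicate 2 (adjusted p = 0.0395), without 96 h CTCF-depleted replicate 1 (log2 fold change -0.91, adjusted p = 0.0554), and with glmTreat (adjusted p = 0.123).

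*IGLL5* is a lambda-like gene inside the immunoglobulin lambda locus, on chromosome 22 from 22887780 to 22896111 on the plus strand. GENCODE 44 places the joining segment *IGLJ1* and the constant segment *IGLC1* in the same interval on the same strand, so that reads of these segments and of *IGLL5* cannot be told apart. It had 118.9 and 104.7 CPM at 0 h, 2.91 and 2.96 CPM in 96 h control and 0.370 and 0.737 CPM in 96 h CTCF-depleted libraries. The groups did not overlap, and *IGLL5* was the gene of the 10 with the largest difference between the 96 h groups. It fell by 5.24 on the log2 scale during conversion (SE 0.12, adjusted p = 2e-42), and differed by a log2 fold change of -2.38 between the 96 h groups (SE 0.36, adjusted p = 2.42e-07). The summed counts of 12 against 65 give a 5.30-fold lower level (95% exact binomial interval 2.84 to 10.8). The call was kept under every alternative in which *IGLL5* could be tested.

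*VPREB3* encodes a VpreB-related protein that associates with mu heavy chains in the endoplasmic reticulum, and lies on chromosome 22 from 23752743 to 23754425 on the minus strand. It had 79.5 and 67.3 CPM at 0 h, 0.883 and 0.741 CPM in 96 h control and 2.22 and 1.94 CPM in 96 h CTCF-depleted libraries. It was thus the only one of the 10 genes called higher in CTCF-depleted than in control cells, at a level that was still 2.83% of the 0 h mean. *VPREB3* fell by 6.47 on the log2 scale during conversion (SE 0.17, adjusted p = 3.89e-39). The log2 fold change between the 96 h groups was 1.34 (SE 0.37, adjusted p = 0.0026), from 45 against 18 summed counts, a ratio of 2.56 with a 95% exact binomial interval of 1.45 to 4.69. The direction was the same without each library in turn, but the call was lost without 96 h control replicate 1 (adjusted p = 0.0221), without 96 h control replicate 2 (adjusted p = 0.0462), without 96 h CTCF-depleted replicate 1 (adjusted p = 0.0226) and with glmTreat (adjusted p = 0.0982).

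The balance between these genes inside each library is independent of the library's scaling. Per length, the ratio of *IGLL1* to *VPREB1*, the partners of 1 surrogate light chain, was 1.65 and 1.69 at 0 h, 0.143 and 0.203 in 96 h control and 0.109 and 0.170 in 96 h CTCF-depleted libraries. *IGLL1* RNA was thus above *VPREB1* RNA at 0 h and well below it in all 4 libraries at 96 h. The ratio of *VPREB1* to *VPREB3* was 1.66 and 1.75 at 0 h and 12.8 and 13.2 in 96 h control libraries. In 96 h CTCF-depleted libraries this ratio was 2.65 and 2.83, between those of the other groups. Mean *VPREB1* was lower there than in 96 h control (6.51 against 12.09 CPM), and mean *VPREB3* was higher (2.08 against 0.812 CPM). The 96 h control ratios rest on 10 and 8 *VPREB3* counts. The ratio of *IGLL1* to *IGLL5* was 4.34 and 4.49, then 1.31 and 1.58, then 4.10 and 2.98, with 4 and 8 *IGLL5* counts behind the last pair.

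**Figure D1:**
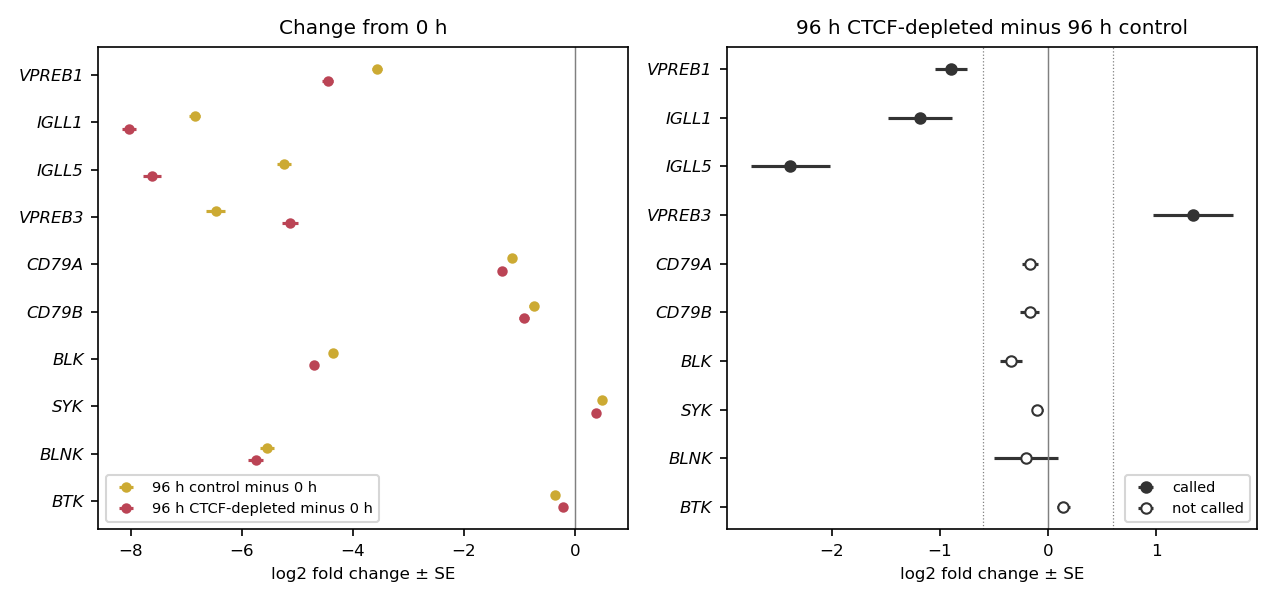
Log2 fold change with its SE for each of the 10 genes, on the left for each 96 h group against 0 h and on the right for 96 h CTCF-depleted against 96 h control cells, with dotted lines at the 0.6 threshold and filled points for called genes. *VPREB1*, *IGLL1* and *IGLL5* lie at -0.89, -1.18 and -2.38 on the right, *VPREB3* at 1.34, and the other 6 genes between -0.34 and 0.14.

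Promoter sequence is shown for *CD79A*, *VPREB1*, *IGLL1* and *VPREB3*, so that a receptor chain with a modest fall, the partners that fell in both comparisons and the gene that was higher with CTCF depletion can be read side by side. RefSeq windows (GRCh38.p14, 250 bases before to 50 after the start site) were matched for 7 of the 10 genes, in 10 windows. *CD79B*, *IGLL5* and *BLK* had no entry in that table. The 250 bases before the start given by RefSeq are printed 5′ to 3′ on the gene's strand. Capitals mark the E-box CAGGTG (or its reverse complement CACCTG), a sequence bound by E2A, the product of *TCF3*, and the palindromic core CCCNNGGG of the EBF1 motif.
CD79A, chr19:41877029-41877278, plus strand: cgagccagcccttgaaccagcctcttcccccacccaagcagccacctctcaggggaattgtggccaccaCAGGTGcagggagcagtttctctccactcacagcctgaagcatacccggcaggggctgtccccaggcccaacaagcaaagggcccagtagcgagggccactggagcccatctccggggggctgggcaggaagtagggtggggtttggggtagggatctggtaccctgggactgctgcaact
VPREB1, chr22:22244536-22244785, plus strand: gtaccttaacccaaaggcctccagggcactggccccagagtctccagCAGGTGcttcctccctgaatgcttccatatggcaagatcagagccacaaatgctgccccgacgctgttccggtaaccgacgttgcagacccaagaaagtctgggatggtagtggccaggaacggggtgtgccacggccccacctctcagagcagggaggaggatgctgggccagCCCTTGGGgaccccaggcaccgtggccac
IGLL1, chr22:23580291-23580540, minus strand: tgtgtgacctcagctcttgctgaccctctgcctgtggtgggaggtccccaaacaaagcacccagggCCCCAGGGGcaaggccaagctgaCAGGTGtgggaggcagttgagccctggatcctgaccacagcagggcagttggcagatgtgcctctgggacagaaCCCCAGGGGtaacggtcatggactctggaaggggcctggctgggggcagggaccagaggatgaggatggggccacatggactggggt
VPREB3, chr22:23754426-23754675, minus strand: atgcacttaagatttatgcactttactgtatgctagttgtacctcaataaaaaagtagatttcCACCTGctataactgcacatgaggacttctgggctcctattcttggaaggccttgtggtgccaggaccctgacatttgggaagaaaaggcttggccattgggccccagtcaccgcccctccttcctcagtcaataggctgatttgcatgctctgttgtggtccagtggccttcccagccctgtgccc

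The E-box was found on either strand in the windows of 6 of the 7 genes (*CD79A*, *VPREB1*, *IGLL1*, *VPREB3*, *BLNK* and *SYK*), in 7 of the 10 windows, beside 20.6% of all 34943 RefSeq windows. *SYK* has overlapping windows that share 1 of the matches. *SYK* counts among the 6 although its RNA was not lower at 96 h. The core CCCNNGGG was found for *VPREB1*, *IGLL1* and *BTK*, in 3 of the 10 windows, beside 19.0% of all windows. In *IGLL1* each of the stretches in capitals that are not the E-box holds 2 overlapping matches of the core. The octamer ATGCAAAT, a sequence bound by OCT factors, was found on the opposite strand in *VPREB3* alone of the 7, in 1 of the 10 windows, beside 1.77% of all windows. The ETS core GAGGAAG was found for *VPREB1*, *VPREB3*, *SYK* and *BTK*, in 5 of the 10 windows, beside 13.6%. Longer forms of the EBF, PU.1 and CTCF motifs were found in 0 of the 10 windows, beside 1.21%, 0.395% and 1.47% of all windows. These matches describe letters in a window and not binding.

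The CD79 chains kept a larger share of their 0 h level. *CD79A*, the Ig-alpha chain that carries 1 of the receptor's immunoreceptor tyrosine-based activation motifs (ITAMs), lies on chromosome 19 from 41877279 to 41881372 on the plus strand. It had 160.7 and 144.9 CPM at 0 h, 68.9 and 69.9 CPM in 96 h control and 57.2 and 66.1 CPM in 96 h CTCF-depleted libraries. *CD79A* fell by 1.14 on the log2 scale during conversion (SE 0.07, adjusted p = 4.44e-22). All 4 libraries at 96 h were below both 0 h libraries. The log2 fold change between the 96 h groups was -0.17 (95% interval -0.32 to -0.03, adjusted p = 0.0638), which did not pass the test.

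*CD79B*, the Ig-beta partner chain, lies on chromosome 17 from 63928738 to 63932336 on the minus strand. It had 52.1 and 51.2 CPM at 0 h, 31.1 and 30.7 CPM in 96 h control and 26.3 and 28.6 CPM in 96 h CTCF-depleted libraries. *CD79B* fell by 0.74 on the log2 scale (SE 0.08, adjusted p = 6.1e-12), close to the 0.6 threshold, and this call was lost with glmTreat (adjusted p = 0.0315). Its log2 fold change between the 96 h groups was -0.17 (95% interval -0.35 to 0.01, adjusted p = 0.136). The ratio of *CD79A* to *CD79B* per length was 4.88 and 4.47 at 0 h, 3.51 and 3.61 in 96 h control and 3.44 and 3.66 in 96 h CTCF-depleted libraries. The 0 h ratios were above all 4 ratios at 96 h, and those of the 96 h groups overlapped.

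Of the proximal kinases and the adaptor, *BLK* and *BLNK* were called lower during conversion, and *SYK* and *BTK* were not called. *BLK*, a Src family kinase of the B lineage on chromosome 8, had 482.2 and 472.2 CPM at 0 h, 20.8 and 25.9 CPM in 96 h control and 19.3 and 17.5 CPM in 96 h CTCF-depleted libraries. It fell by 4.35 on the log2 scale during conversion (SE 0.07, adjusted p = 6.27e-51), 20.4-fold in summed counts. Between the 96 h groups its log2 fold change was -0.34 (95% interval -0.54 to -0.15, adjusted p = 0.00437), past the p threshold and short of the fold threshold. *BLK* was 1 of 5 of the 10 genes with an adjusted p below 0.01 in that comparison, beside 29.4% of all genes.

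*SYK*, the tandem SH2 kinase that binds phosphorylated ITAMs in B cells and in myeloid cells, is on chromosome 9. It had 157.7 and 148.8 CPM at 0 h, 210.6 and 217.4 CPM in 96 h control and 204.4 and 194.6 CPM in 96 h CTCF-depleted libraries. It was the only one of the 10 genes with a higher level at 96 h than at 0 h. The log2 fold change during conversion was 0.48 (SE 0.05, adjusted p = 1.66e-12), short of the 0.6 threshold, and that between the 96 h groups was -0.10 (95% interval -0.20 to -0.003, adjusted p = 0.108). The ratio of *BLK* to *SYK* per length went from 3.20 and 3.32 at 0 h to 0.103 and 0.125 in 96 h control and 0.0985 and 0.0940 in 96 h CTCF-depleted libraries.

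*BLNK*, the adaptor that SYK phosphorylates, lies on chromosome 10 from 96189171 to 96271587 on the minus strand. It had 96.4 and 98.3 CPM at 0 h, 2.56 and 1.57 CPM in 96 h control and 1.85 and 1.75 CPM in 96 h CTCF-depleted libraries. *BLNK* fell by 5.54 on the log2 scale during conversion (SE 0.13, adjusted p = 5.27e-42), 46.9-fold in summed counts. It was the only one of the 10 genes whose 96 h groups overlapped. Its log2 fold change between them was -0.21 (95% interval -0.78 to 0.37, adjusted p = 0.643), and 0.23 without 96 h control replicate 1 (adjusted p = 0.736). The interval, from 39 against 46 summed counts, is wide enough to hold a change past the fold threshold.

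*BTK*, the TEC family kinase that activates phospholipase C gamma, is on chromosome X. It had 151.0 and 159.1 CPM at 0 h, 122.3 and 121.0 CPM in 96 h control and 135.6 and 133.0 CPM in 96 h CTCF-depleted libraries. Its log2 fold change was -0.35 during conversion (SE 0.06, adjusted p = 1.59e-07) and 0.14 between the 96 h groups (95% interval 0.03 to 0.25, adjusted p = 0.0425), neither of which passed both thresholds. The ratio of *SYK* to *BTK* per length was 1.57 and 1.40 at 0 h, 2.58 and 2.70 in 96 h control and 2.26 and 2.20 in 96 h CTCF-depleted libraries. The 3 groups did not overlap in this ratio.

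In CTCF-depleted cells at 96 h against cells at 0 h, 8 of the 10 genes were called lower and 0 higher, beside 25.2% and 27.2% of all genes. All 10 had an adjusted p below 0.01, beside 71.0% of all genes, and none overlapped between the groups, beside 87.8%. The log2 fold change was -8.04 for *IGLL1*, -7.62 for *IGLL5*, -5.75 for *BLNK*, -5.13 for *VPREB3*, -4.70 for *BLK* and -4.45 for *VPREB1*. It was -1.31 for *CD79A* and -0.91 for *CD79B*, and *BTK* (-0.21) and *SYK* (0.38) were not called. This comparison and the conversion of control cells share the 0 h libraries, and the comparison between the 96 h groups shares libraries with both.

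Ordered by CPM per kilobase of exon, the levels at 0 h ran from *IGLL1* (367.9) and *VPREB1* (220.2) through *VPREB3* (129.5), *CD79A* (113.7), *BLK* (95.8) and *IGLL5* (83.5) to *SYK* (29.4), *CD79B* (24.3), *BTK* (19.8) and *BLNK* (9.23). Only *VPREB3* and *CD79A* overlapped among these neighbors. In 96 h control cells the order began with *CD79A* (51.7), *SYK* (41.1) and *VPREB1* (18.6), followed by *BTK* (15.6) and *CD79B* (14.5), with *BLK* (4.69), *IGLL1* (3.18), *IGLL5* (2.19), *VPREB3* (1.43) and *BLNK* (0.196) below, and no neighbors overlapped. In 96 h CTCF-depleted cells *VPREB1* (10.0) stood below *BTK* (17.2) and *CD79B* (12.9), *VPREB3* (3.67) stood above *IGLL1* (1.39) and *IGLL5* (0.414) and overlapped *BLK* (3.69), and *BLNK* (0.171) was lowest. In both 96 h groups *CD79A* and *SYK* were thus the leading genes per length, and a surrogate light chain gene led only at 0 h. This order depends on the lengths, which merge the exons of all annotated transcripts (10.6 kb for *BLNK*, 2.125 kb for *CD79B*). By CPM alone *BLK* (477.2) led at 0 h, and *BLNK* (97.4) stood above *CD79B* (51.7). In 96 h control cells *SYK* (214.0) and *BTK* (121.7) stood above *CD79A* (69.4) by CPM. In 96 h CTCF-depleted cells the values were 199.5, 134.3 and 61.7 CPM.

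The genes of the mu heavy chain and of the conventional light chains are not analysed here. Of 8 immunoglobulin chain genes looked for, the table analysed holds 1, *JCHAIN* (listed as *IGJ*), which encodes the joining chain of secreted IgM and IgA. *JCHAIN* had 442 and 639 counts at 0 h, 5 and 8 counts in 96 h control and 1 count in each 96 h CTCF-depleted library. It fell by 6.29 on the log2 scale during conversion (SE 0.21, adjusted p = 1.84e-34), and its log2 fold change between the 96 h groups was -2.53 (adjusted p = 0.0109), which was not called.

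The genes that work beside the receptor were read from 8 lists of the pathway, with 73 of 86 genes tested. During conversion 21 were called lower, 35 higher and 17 were not called, beside 22.9% of all genes called lower and 25.4% higher. Among the Src family kinases and CSK, 2 of 8 were lower and 3 higher. *FGR*, a myeloid Src family kinase, went from 0.356 CPM at 0 h to 153.4 CPM in 96 h control cells. *LYN*, which acts in both lineages, went from 61.2 to 417.1 CPM (log2 fold change 2.77, adjusted p = 4.28e-45). Of the relatives of SYK and BTK, *ZAP70* fell by 2.13 on the log2 scale and *TEC* by 1.27, 2 of the 3 tested.

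Of 7 coreceptor and adaptor genes tested, 2 were called lower and 1 higher. *PIK3AP1*, an adaptor of PI 3-kinase, fell by 0.81 on the log2 scale, and *SH3KBP1*, a scaffold that binds BLNK, rose by 1.91. Among the 20 downstream effectors 4 were lower and 11 higher, with a median log2 fold change of 0.87. The protein kinase C gene *PRKCB* went from 4.83 to 353.3 CPM, *PRKCD* rose by 2.52 and the calcium sensor gene *STIM1* by 2.86 on the log2 scale. Of 13 inhibitors tested, 4 were lower and 7 higher, led by *LAIR1*, *PECAM1* and *SLA* with log2 fold changes of 3.83, 5.32 and 4.65.

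All 10 genes for myeloid ITAM adaptors, receptors and CARD9, which use SYK in myeloid cells, were higher in 96 h control than in 0 h cells. Their median log2 fold change was 8.41 as fitted and 6.62 with the 7 genes that had at most 3 counts in each 0 h library set at that limit. *TYROBP*, an ITAM adaptor, had 1 and 0 counts at 0 h and 609 and 549 counts in 96 h control libraries, *CLEC4E* had 0 counts in both 0 h libraries and 532 and 511 at 96 h, and *FCGR2A* went from 3.39 to 75.9 CPM. Of the 11 transcription factors tested that are known to bind genes of the pre-B receptor, 6 were lower and 3 higher. *EBF1* fell from 879.1 to 107.3 CPM and *PAX5* from 794.1 to 91.1 CPM, and *IRF8* rose from 12.98 to 349.3 CPM.

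With CTCF depletion 8 of the 73 pathway genes were called lower, 4 higher and 61 were not called, beside 7.03% of all genes called lower and 5.41% higher. The count of 8 stood beside 1038 of all 14758 genes tested. It was 3 at a log2 threshold of 1, beside 436 of all genes, and 2 with glmTreat, beside 344. None of the 7 coreceptor and adaptor genes was called. *CD22*, an inhibitory receptor of B cells and 1 of the 10 precursor B cell markers above, went from 34.8 to 96.6 CPM (log2 fold change 1.47, adjusted p = 3.04e-24), *YES1*, a Src family kinase, from 17.6 to 52.8 CPM (1.59, adjusted p = 1.27e-19), and *OSCAR*, a myeloid receptor that signals through an ITAM adaptor, rose by 1.13 (adjusted p = 4e-17). *TXK*, a TEC family kinase, had a log2 fold change of 0.91 (adjusted p = 0.000148), and this call was lost with DESeq2, at a log2 threshold of 1, with glmTreat and without 96 h control replicate 2.

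Among the genes called lower with CTCF depletion, *IRF8* went from 349.3 to 168.0 CPM (log2 fold change -1.06, adjusted p = 5.13e-24). *POU2AF1*, the B cell coactivator of OCT factors, went from 9.69 to 6.10 CPM (-0.67, adjusted p = 0.000533). The calcium channel gene *ITPR2* (-0.69), *NFATC1* (-1.09), the RAS activator *RASGRP1* (-2.25), the ubiquitin ligase gene *CBLB* (-0.74) and the myeloid receptor genes *TREM1* (-0.95) and *CLEC7A* (-0.71) were the others. *EBF1* and *PAX5*, which activate surrogate light chain genes in B cell precursors, had log2 fold changes of -0.02 (adjusted p = 0.812) and -0.10 (adjusted p = 0.191) between the 96 h groups. *TCF3* had -0.28 (adjusted p = 1.68e-05), short of the fold threshold.

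The pattern of each gene over the 6 libraries was set beside that of every other tested gene, by the Euclidean distance of log2 CPM values centered on the mean of each gene. *IGLL5* was nearest to *PEG10* (distance 0.674), which had a mean of 100.2 CPM at 0 h, 3.40 CPM in 96 h control and 0.461 CPM in 96 h CTCF-depleted cells, and *IGLL1* to *FHOD3* (distance 0.874), with 29.0, 0.271 and 0 CPM. *VPREB1* was nearest to *RNF144A* (0.233), *BLK* to *SALL2* (0.124), *CD79A* to *IGFBP7* (0.077) and *CD79B* to *NOL9* (0.082). *SYK* was nearest to *DAGLB* (0.046) and *BTK* to *KTN1* (0.057). *BLNK* was nearest to *LINC00616* (0.526), which had 8.59 CPM at 0 h and 0 CPM in both 96 h groups. The log2 values of *LINC00616* at 96 h, and those of *FHOD3* in 96 h CTCF-depleted cells, are thus set by the small count added before taking logs. No gene of the 10 had another of the 10 as its nearest gene: *CD79A* and *CD79B* were 0.471 apart, *VPREB1* and *BLK* 0.901, and *IGLL1* and *IGLL5* 1.65.

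The 4 genes grouped on the light chain side lie on chromosome 22 in the order *VPREB1*, *IGLL5*, *IGLL1* and *VPREB3*. Their neighboring start sites are 643.0, 692.5 and 174.1 kb apart. *IGLL1* and *VPREB3*, which were called in opposite directions between the 96 h groups, are thus the closest pair. A position was known for 12501 of the 14758 genes tested, and only these could count as neighbors. Of them 13 had a start within 250 kb of that of *VPREB3*, a window chosen after values had been seen. During conversion 9 of the 13 were called lower and 0 higher, beside 22.9% and 25.4% of all genes. With CTCF depletion 2 of the 13 were called lower and 0 higher, beside 7.03% and 5.41% of all genes. The 2 were *IGLL1* and *MIF*, 140.0 kb away (log2 fold change -0.69, adjusted p = 4.72e-14). The nearest of the 13, *ZNF70* at 3.3 kb, had a log2 fold change of -0.07 (adjusted p = 0.673), and *C22orf15* at 8.6 kb had 0.55 (SE 0.70, adjusted p = 0.575). *GNAZ*, the only tested gene with a known position within 250 kb of *IGLL5*, was lower during conversion (log2 fold change -4.54) and had 0.61 between the 96 h groups (adjusted p = 0.385).

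**Figure D2:**
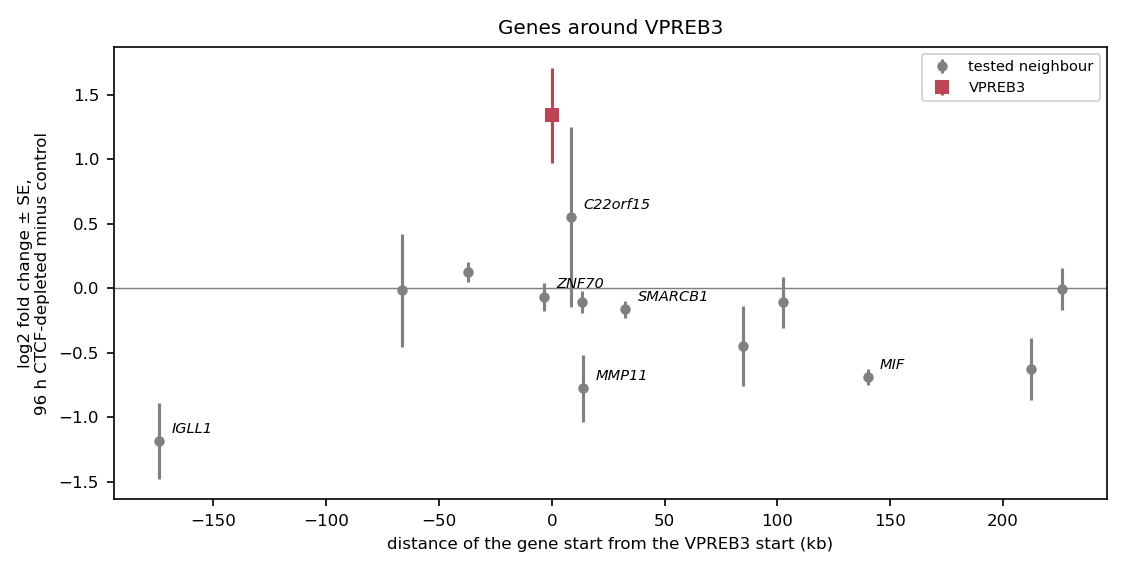
Log2 fold change with its SE between 96 h CTCF-depleted and 96 h control cells, against the distance of the gene start from that of *VPREB3* in kb. The square is *VPREB3*, and dots are the 13 tested genes with a known position around it. *VPREB3* lies at 1.34 and its nearest neighbor *ZNF70* at -0.07, and *IGLL1* and *MIF* are the called neighbors at -1.18 and -0.69.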

How the data were processed

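The authors deposited raw read counts per gene, without normalization. Per the paper's methods and the submitters' processing notes, reads of 6 stranded total RNA libraries were processed with nf-core/rnaseq, aligned to hg38 with STAR 2.6.1d and counted with featureCounts 2.0.6 over protein-coding exons. The counts also cover genes that are not protein-coding, such as *LINC00616*. The strand setting and the annotation release are not given in the sources used here, so that reads of overlapping genes could not be separated.

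The test was that of edgeR 4.0.16 in R 4.3.3 (filterByExpr, TMM, quasi-likelihood test, condition as the only term, all 6 libraries, Benjamini-Hochberg adjustment over 14758 genes, which hold at least 99.9% of the counts of each library). The thresholds were those of the study, which used DESeq2. The prior degrees of freedom were 51.7. On simulated data for the 96 h groups with 200 of 14758 genes changed 3-fold, edgeR recovered 200 and DESeq2 198, each with 0 false calls. The simulation gave each gene the same mean in all groups before the change, used a common spread and changed only genes with higher mean counts. It thus does not cover genes with as few counts as *IGLL5* and *VPREB3* at 96 h. With 2 libraries in each group an exact permutation test cannot go below p = 0.333, so that none was run. Intervals of ratios are exact binomial on summed counts. No molecular identifiers mark the reads. Lengths are merged exons of GENCODE 44. Tables were made with scipy 1.17.1, numpy 2.4.6 and pandas 2.3.3 in Python 3.11.15, and figures with matplotlib 3.10.9.

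The 10 genes, the pathway and marker lists and the tests were chosen with earlier results of these data known. All 10 genes are named, and of each pathway list up to 3 called genes, taken by adjusted p from the smallest, in each of 2 comparisons (96 h control against 0 h, and 96 h CTCF-depleted against 96 h control), together with *CTCF* and the nearest gene by pattern. A few of the genes so chosen are not reported here. *TCF3*, *EBF1* and *PAX5* values with CTCF depletion and the neighbors on chromosome 22 were chosen after values had been seen. The alternatives were DESeq2 1.42.0, RLE scaling, no filter, at least 10 counts in every library, only the 4 libraries compared, a replicate block, an adjusted p of 0.05 without a fold threshold, a log2 threshold of 1, glmTreat, and leaving out each library.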

Additional observations from a re-analysis of the deposited data

Results flagged for a closer look

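For 4 of the 10 genes, the change from 0 h to 96 h differed between control and CTCF-depleted cells past both the p and the fold threshold. The test of that difference is the comparison of the 96 h groups, because both changes start from the same 0 h libraries. In it 7.03% of all genes tested were called lower and 5.41% higher. *BLK* passed the p threshold alone (log2 fold change -0.34, edgeR adjusted p = 0.00437). The difference in log2 fold change was -0.89 for *VPREB1* (edgeR adjusted p = 1.3e-06), -1.18 for *IGLL1* (0.000869), -2.38 for *IGLL5* (2.42e-07) and 1.34 for *VPREB3* (0.0026). Each was seen in both libraries of the group against both control libraries, a separation that 67.9% of all genes tested showed. *IGLL1*, *IGLL5* and *VPREB3* had between 4 and 34 counts in each 96 h library. With 2 libraries in a group, no library could be tested as an outlier.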

How the results depend on the processing

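DESeq2, RLE scaling and the replicate block changed no call of the 10 genes. The block was not read as a pairing, since the replicate numbers are only numbers: the differences between replicates 1 and 2 correlated at -0.0194, 0.0109 and -0.0294 between the groups, and with the block *VPREB3* had a log2 fold change of 1.34 (adjusted p = 0.00253). With no fold threshold and an adjusted p below 0.05, 1 gene of the 10 was higher in each 96 h group against 0 h. Of all 14758 genes tested, 5612 were higher in 96 h control and 5784 in 96 h CTCF-depleted cells at that setting. With CTCF depletion 2 of the 10 genes were higher, as were 18 pathway genes, with 21 lower. Of all genes tested, 2375 were higher and 3330 lower. At a log2 threshold of 1, 3 pathway genes were lower with CTCF depletion, beside 436 of all 14758 genes tested. With at least 10 counts in every library *VPREB3* and *IGLL5* left the test, so that 0 of 8 genes were higher. Of 58 pathway genes 23 were higher during conversion and 5 lower with CTCF depletion. Of all 12146 genes tested with that filter, 2769 were higher during conversion. With CTCF depletion 796 of them were lower and 593 higher. With glmTreat 1 gene was lower and 0 higher with CTCF depletion, and 2 pathway genes were lower, beside 344 lower and 298 higher of all 14758 genes tested. Leaving out 1 library moved the log2 fold change of *BLNK* with CTCF depletion to between -0.47 and 0.23, the latter without 96 h control replicate 1. The calls of *VPREB3* and *IGLL5* with CTCF depletion rest on low counts. These were 8 and 10 counts of *VPREB3* in 96 h control and 4 and 8 of *IGLL5* in 96 h CTCF-depleted libraries.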
